A study of Mus musculus with 2 samples.

Results

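The genes of glutathione metabolism and antioxidant defence were taken from the deposited table by gene symbol. They comprised the glutathione S-transferases, glutathione peroxidases, peroxiredoxins, thioredoxin reductases and superoxide dismutases, together with catalase, the thioredoxins Txn1 and Txn2, the glutathione synthesis and reduction genes Gclc, Gclm, Gss and Gsr, the quinone reductase gene Nqo1 and the transcription factor gene Nfe2l2. The rule found 51 genes among 18722 loci, and the rule used symbols only, with no measured value. The study compared testis RNA of male C57BL/6J mice at 16 weeks of age, with 1 library labelled shControl and genotype WT and 1 library labelled shDmrt1 and genotype Dmrt1 knockdown. Dmrt1 is a DM-domain transcription factor made by Sertoli cells and by spermatogonia. The labels used here do not say how many testes were pooled, how the hairpin was delivered or how long before collection.

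Glutathione is a small thiol that cells make in a pair of enzymatic steps and keep reduced with NADPH. Transferases join it to reactive compounds, most glutathione peroxidases spend it to reduce peroxides, and most peroxiredoxins reduce peroxides with electrons from thioredoxin. Superoxide dismutases and catalase work without glutathione. In the testis, Leydig cells run cytochrome P450 reactions that leak oxidants and are rich in transferases, while phagocytes make superoxide as a weapon.

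Total counts were 17846426 (control) and 24594371 (knockdown). Counts were scaled with TMM factors, and each ratio is given as knockdown over control with a 95% interval that covers only counting error. Neither condition had a replicate and none was tested against the other, so each value describes a pair of libraries, and "higher" and "lower" are said of libraries. A gene was called where its whole interval lay beyond 2-fold. By that rule 17.8% of the 15104 loci with a level of at least 1 CPM (counts scaled to a common library total) in 1 library were higher in the knockdown library and 20.8% were lower. The targeted gene Dmrt1 had 852 control and 39 knockdown counts, and its log2 ratio was -4.45 (-4.97 to -4.01). Cell type markers differed widely between the libraries. All 8 Leydig markers were lower and their summed level was 23628 CPM in the control but 256 CPM after knockdown. All 9 Sertoli markers were lower, with sums of 7506 and 572 CPM. All 7 macrophage and monocyte markers were higher, with sums of 380 and 4139 CPM. In bulk tissue, fewer cells of a type and less RNA per cell cannot be told apart.

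Of the 51 genes, 48 passed the filter of 1 CPM. Among them 11 were called higher (22.9%, against 17.8% of all loci), 17 lower (35.4%, against 20.8%) and 20 neither. Their median log2 ratio was -0.04, close to the -0.02 of all loci, with 24 ratios above 0 and 24 below. By the looser rule of at least 1.5-fold with an interval excluding 1, 16 were higher, where 29.7% of all loci were, and 21 lower, where 32.5% were. Transferases and the other genes had different medians, though their ranges overlapped. The 21 transferases had a median of -1.81, with 3 higher and 12 lower, whereas the 27 other genes had a median of 0.52, with 8 higher and 5 lower. The 3 genes below the filter were Gpx6 with 6 and 0 counts, Gsta1 with 1 and 0, and Gstm3 with 11 and 0, the control value standing first here and below. A count of 0 in the knockdown library allows up to 0.122 CPM.

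**Figure D1:**
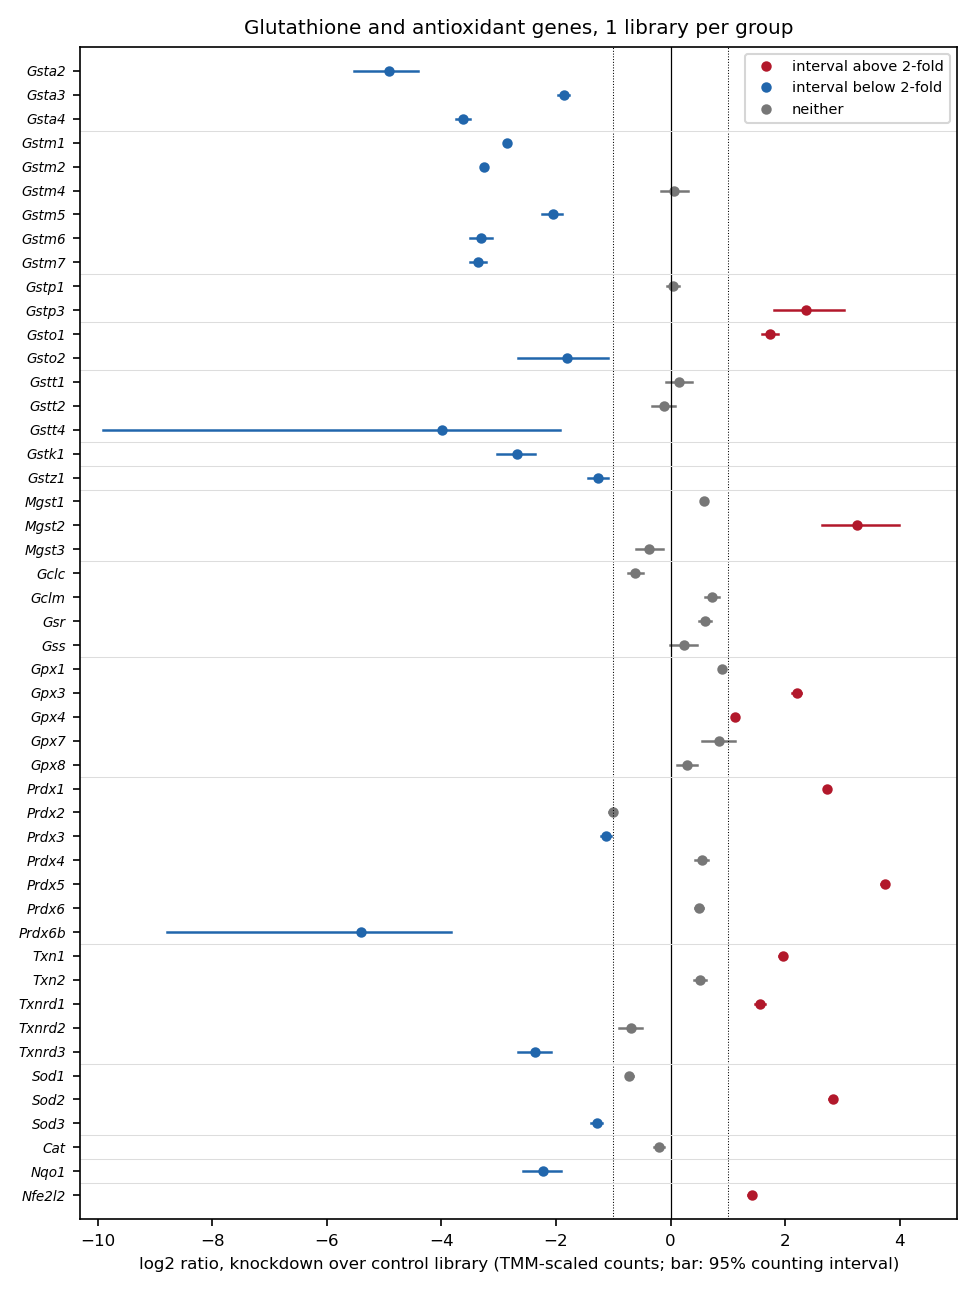
The log2 ratio of knockdown over control (x axis, from TMM-scaled counts) is plotted for the 48 genes that passed the filter (y axis, grouped by family), with bars for the 95% counting interval and dotted lines at 2-fold. The alpha and mu transferases other than Gstm4 lie left of the 2-fold line, and Prdx5, Mgst2, Sod2 and Prdx1 lie farthest to the right.

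Nfe2l2 encodes Nrf2, the factor that turns on many of these genes after it escapes its repressor Keap1. It had 2876 control and 7774 knockdown counts and was 2.66-fold higher (log2 1.41, 1.35 to 1.48). Scaled by library totals, its log2 ratio was 0.97 and it was no longer called. Genes known as Nrf2 targets went both ways. Nqo1, which reduces quinones and is a standard readout of Nrf2, had 441 and 95 counts and was 4.69-fold lower (log2 -2.23, -2.57 to -1.91). Txnrd1, the cytosolic thioredoxin reductase, had 1519 and 4554 counts and was 2.96-fold higher (log2 1.56, 1.48 to 1.65). Both subunits of the enzyme that starts glutathione synthesis are Nrf2 targets too, and they lay on opposite sides of 0. The catalytic subunit gene Gclc had 1225 and 813 counts, and its log2 ratio was -0.61 (-0.74 to -0.48). The modifier subunit gene Gclm had 833 and 1394 counts, and its log2 ratio was 0.72 (0.60 to 0.85).

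The remaining genes of glutathione supply had ratios near 0 or a little above it. Gss, which completes the synthesis, had 278 and 330 counts, and its interval of -0.01 to 0.46 included 0. Gsr, which reduces oxidised glutathione with NADPH, had 1208 and 1864 counts, and its log2 ratio was 0.61 (0.50 to 0.71). None of these 4 supply genes was called, and the log2 ratios ran from -0.61 to 0.72.

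The promoters of the antioxidant genes were searched for the core of the antioxidant response element, the Nrf2 site, because these genes are known for it. The letters searched were TGACNNNGC on either strand, where N is any base, in RefSeq windows (build GRCm38.p6) from 250 bases before to 50 bases after each RefSeq start, which can differ from the outer bounds of a gene in GENCODE. An AP-1 site can overlap this core. Of the 51 genes, 44 had 57 such windows, and 9 windows of 9 genes held the core, which was 15.8% of windows against 12.4% of 32851 windows in all. The core stood in 3 of 11 higher genes, 3 of 14 lower genes and 3 of 16 genes called neither, so the genes that held it were spread over all 3 calls. Counted by gene, 9 of the 44 held it, against 14.0% of 27025 genes in all. A match is a description of letters, not a bound site. The stretches around the cores are shown 5′ to 3′ on the gene's strand, with the core in capitals; where it lies on the other strand the capitals begin with GC and end with GTCA.
Nfe2l2 (higher, chr2:75704869-75704913, minus strand): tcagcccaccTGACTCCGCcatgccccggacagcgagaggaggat
Prdx1 (higher, chr4:116685440-116685500, plus strand): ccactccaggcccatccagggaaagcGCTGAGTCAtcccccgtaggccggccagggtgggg
Txnrd1 (higher, chr10:82859088-82859148, plus strand): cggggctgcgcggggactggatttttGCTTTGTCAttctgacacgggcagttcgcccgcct
Gclm (neither, chr3:122245397-122245457, plus strand): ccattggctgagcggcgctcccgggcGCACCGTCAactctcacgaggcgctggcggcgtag
Mgst1 (neither, chr6:138140445-138140505, plus strand): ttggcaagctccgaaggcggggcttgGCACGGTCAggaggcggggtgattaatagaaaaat
Sod1 (neither, chr16:90220680-90220740, plus strand): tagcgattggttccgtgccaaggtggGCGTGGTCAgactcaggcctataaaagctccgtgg
Gsta3 (lower, chr1:21240438-21240498, plus strand): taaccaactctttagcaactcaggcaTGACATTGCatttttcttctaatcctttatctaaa
Gstm5 (lower, chr3:107895786-107895846, plus strand): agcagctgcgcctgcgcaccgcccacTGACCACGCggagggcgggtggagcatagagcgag
Gstm7 (lower, chr3:107931709-107931769, minus strand): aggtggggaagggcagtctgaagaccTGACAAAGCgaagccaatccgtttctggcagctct

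The mu class transferases carried the largest difference in level. These cytosolic enzymes conjugate glutathione to reactive compounds, and their 7 genes stand in a row of 149 kb on chromosome 3. Gstm1 (ENSMUSG00000058135, a protein-coding gene at chromosome 3, 108012255 to 108017973, GRCm38) had 49997 and 6999 counts. It was 7.24-fold lower, and its log2 ratio was -2.86 (-2.89 to -2.82). Gstm2 (ENSMUSG00000040562, chromosome 3, 107981702 to 107986453) had 34864 and 3721 counts and was 9.50-fold lower (log2 -3.25, -3.30 to -3.20). Of all 51 genes these were the pair with the highest levels per transcript length in the control library, at 2274 and 2134 FPKM (fragments per kilobase of transcript, scaled between libraries, as deposited by the authors). In the knockdown library they were at 327 and 224 FPKM and stood 8th and 11th.

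Their neighbours Gstm6 and Gstm7 were lower by about the same ratio. Gstm7 had 4483 and 444 counts, and its log2 ratio was -3.35 (-3.50 to -3.22). Gstm6 had 2296 and 236 counts, and its log2 ratio was -3.30 (-3.50 to -3.11). The intervals of Gstm2, Gstm6 and Gstm7 overlap, so these 3 ratios cannot be told apart by counting error, whereas that of Gstm1 lies nearer 0. Gstm5, at the other end of the row, had 1382 and 336 counts, and its log2 ratio was -2.06 (-2.24 to -1.89). A transcript on the opposite strand overlaps 13.9% of the Gstm5 exon bases. Gstm4, which lies beside Gstm1 at the far end of the row, stood apart from its paralogues. It had 281 and 299 counts and an interval of -0.17 to 0.31 that includes 0, and its sign depended on the scaling. Gstm4 and the lower Gstm5 shared no 50-base stretch of their transcripts with another annotated gene, and the lower Gstm7 shared 0.532% of such stretches. Gstm1 shared 18.9%, mostly with a pseudogene, Gstm6 5.97% and Gstm2 5.65%. The next gene past Gstm4 in the table was Ampd2, with 633 and 774 counts and a log2 ratio of 0.27.

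**Figure D2:**
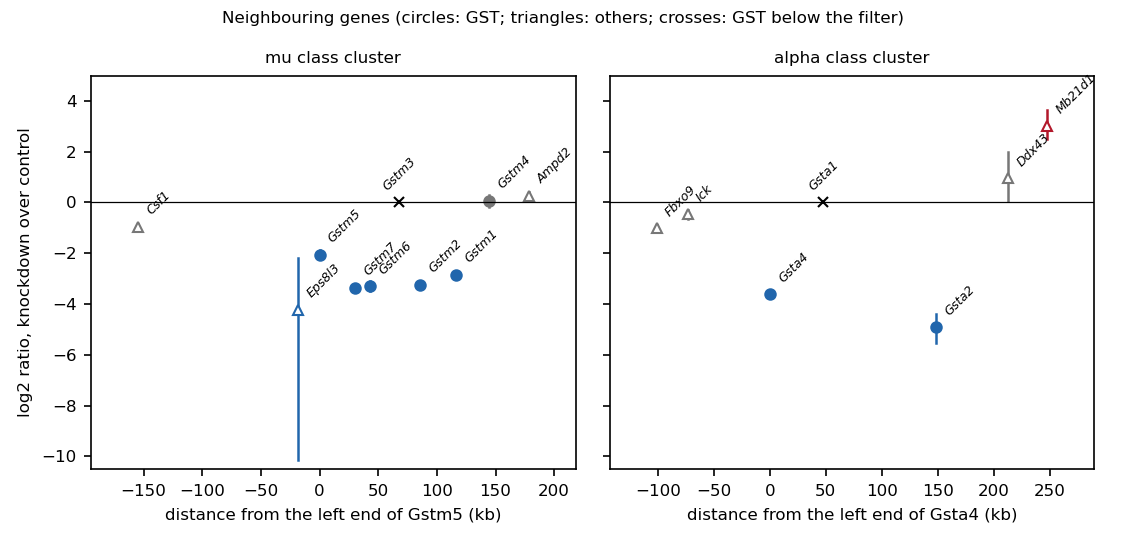
Log2 ratio of knockdown over control (y axis, with 95% counting intervals) is plotted against distance in kb (x axis) along the mu and the alpha transferase clusters, with filled circles for transferases, open triangles for other genes and crosses at 0 for transferases below the filter. Within the mu row, 5 genes lie between -3.35 and -2.06 and Gstm4 lies at 0.07, while Gsta4 and Gsta2 lie at -3.62 and -4.91.

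The alpha class was lower throughout among the genes measured. Gsta4, which conjugates the lipid peroxidation product 4-hydroxynonenal, had 7534 and 622 counts and was 12.3-fold lower (log2 -3.62, -3.74 to -3.50). Gsta2 had 877 and 29 counts and was 30.2-fold lower (log2 -4.91, -5.53 to -4.41). Of the 50-base stretches of Gsta2 transcripts 49.8% also stood in other genes, 36.0% in Gsta1, so reads from these stretches do not point to Gsta2 alone. Few reads were counted on Gsta1, which had 1 and 0 counts. Gsta3, which lies on chromosome 1 away from this cluster and detoxifies aflatoxin epoxide in mice, had 4162 and 1161 counts and was 3.63-fold lower (log2 -1.86, -1.96 to -1.77). The intervals of these 3 genes do not overlap each other.

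The smaller classes differed among themselves. Gstk1, a transferase of mitochondria and peroxisomes, had 579 and 91 counts, and its log2 ratio was -2.68 (-3.03 to -2.37). Gstz1, the maleylacetoacetate isomerase of tyrosine breakdown, had 891 and 377 counts, and its log2 ratio was -1.26 (-1.44 to -1.09). Both were called lower. Exons of Pomt2 on the opposite strand, with 874 and 461 counts, cover 9.14% of the Gstz1 exon bases. Gstp1 of the pi class had 1350 and 1412 counts, and its log2 ratio was 0.04 (-0.06 to 0.15), and 33.7% of its 50-base stretches also stood in Gstp2, which was not analysed here. Gstp3 had 28 and 149 counts and was 5.17-fold higher (log2 2.37, 1.80 to 3.03). The omega pair, which are neighbours on chromosome 19, lay on opposite sides of 0. Gsto1, which removes glutathione from proteins and reduces dehydroascorbate, had 503 and 1700 counts and was 3.33-fold higher (log2 1.74, 1.59 to 1.88). Gsto2 had 67 and 19 counts, and its log2 ratio was -1.81 (-2.66 to -1.09). Of the theta class, Gstt1 with 314 and 352 counts and Gstt2 with 442 and 413 had intervals that included 0. Gstt4 had 23 counts and 1 count, and its log2 ratio was -3.99 (-9.91 to -1.92).

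The membrane-bound transferases were not lower as a class. Mgst1, an abundant enzyme of the endoplasmic reticulum and outer mitochondrial membrane, had 6304 and 9618 counts and a log2 ratio of 0.59 (0.54 to 0.64), short of the call. Mgst2, which can make leukotriene C4, had 22 and 217 counts and was 9.53-fold higher (log2 3.25, 2.65 to 3.99). Mgst3 had 342 and 268 counts, and its log2 ratio was -0.37 (-0.61 to -0.14). The transferases thus took up different shares of their summed FPKM in each library. The mu class was 76.3% of it in the control and 35.0% after knockdown, and the microsomal class 8.19% and 42.4%. Summed over all classes, transferase FPKM was 6391 (control) and 1779 (knockdown), 3.59-fold lower. The lower transferase levels went with the lower Leydig and Sertoli marker sums given above, in which no marker was at 0 counts, and the part of either cell type in them was not tested.

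**Figure D3:**
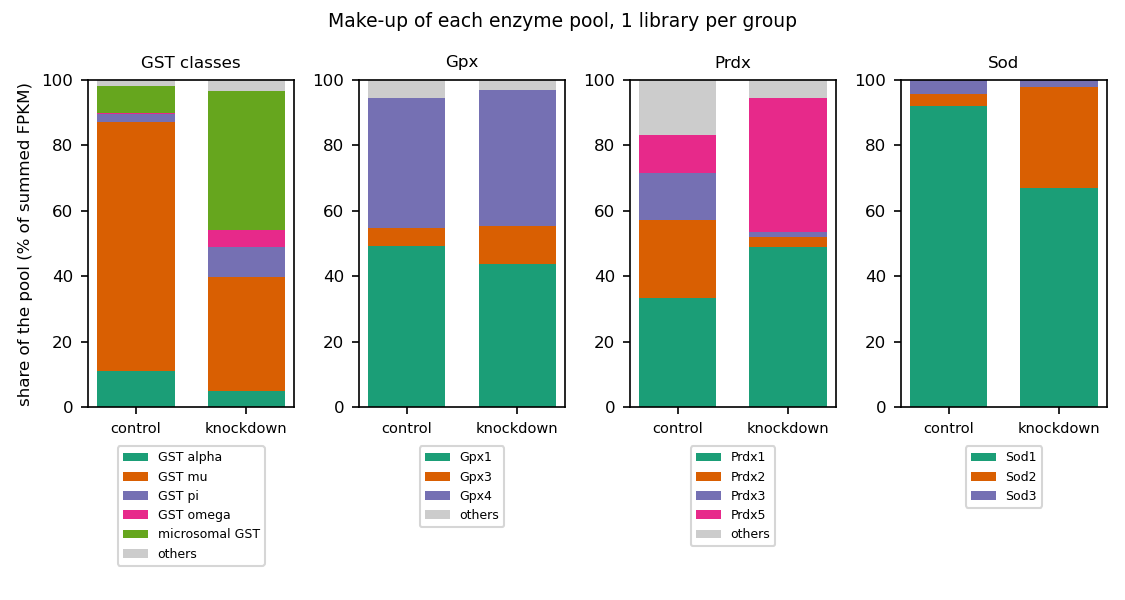
Stacked bars give the share of summed FPKM (y axis, %) taken by each class or gene in the control and knockdown library, for the transferases, glutathione peroxidases, peroxiredoxins and superoxide dismutases. The mu class takes 76.3% and 35.0% of the transferase pool, Prdx5 takes 11.5% and 40.9% of the peroxiredoxin pool, and Sod2 takes 3.74% and 30.8% of the dismutase pool.

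Glutathione peroxidase ratios were all above 0 among the 5 genes measured, except that of Gpx8 with library totals. Gpx3, the secreted enzyme of plasma, had 1503 and 7004 counts and was 4.59-fold higher (log2 2.20, 2.12 to 2.28). Gpx4, which reduces lipid hydroperoxides in membranes, protects cells from ferroptosis and is a structural protein of sperm, had 4847 and 10738 counts and was 2.18-fold higher (log2 1.13, 1.08 to 1.18). It was not called when scaled by library totals (0.68) or by upper quartiles (1.04), and 34.7% of its 50-base stretches also stood in a pseudogene. The main cytosolic enzyme gene Gpx1 had 5470 and 10324 counts, and its log2 ratio of 0.90 (0.85 to 0.94) lay just under the call. Gpx1 and Gpx4 held 49.1% and 39.8% of the summed peroxidase FPKM in the control library and 43.7% and 41.5% in the knockdown library, and Gpx3 held 5.52% and 11.7%. Of the enzymes of the endoplasmic reticulum, Gpx8 had 485 and 601 counts, and its log2 ratio of 0.29 (0.11 to 0.46) was -0.15 with library totals. Gpx7 had 157 and 285 counts, and its log2 ratio was 0.84 (0.55 to 1.13), but its deposited FPKM values were 15.2 and 16.0, a log2 ratio of only 0.08.

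The peroxiredoxins, which reduce peroxides through a reactive cysteine, held the largest higher ratio of the 48 genes. Prdx5, found in the cytosol, mitochondria and peroxisomes (ENSMUSG00000024953, chromosome 19, 6906697 to 6910106, a protein-coding gene), had 2319 and 31329 counts. It was 13.3-fold higher, and its log2 ratio was 3.74 (3.67 to 3.80). Exons of Trmt112 on the opposite strand cover 19.1% of its exon bases, and although the library kit was stranded, no source used here says whether strand was used in counting. Trmt112 itself had 571 and 1353 counts and a log2 ratio of 1.22, and its part in the Prdx5 counts was not tested. Prdx1, the main cytosolic form (ENSMUSG00000028691, chromosome 4, 116685544 to 116700822, protein-coding), had 8192 and 55195 counts and was 6.64-fold higher (log2 2.73, 2.70 to 2.77). In FPKM, Prdx1 stood 7th of the 51 genes in the control at 378 and 1st in the knockdown library at 2271, and Prdx5 stood 16th at 131 and 2nd at 1895.

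The other peroxiredoxins did not share these ratios. Prdx3 of mitochondria had 3417 and 1582 counts and was 2.19-fold lower (log2 -1.13, -1.22 to -1.04). Prdx2, a cytosolic form abundant in red blood cells, had 6114 and 3085 counts and a log2 ratio of -1.01 (-1.07 to -0.94), which crossed the call with library totals (-1.45) and upper quartiles (-1.10). Exons of Junb on the opposite strand, with 1117 and 4713 counts, cover 5.67% of its exon bases. Of 6 red blood cell markers measured, 3 were higher and 1 lower, with sums over the 7 found of 71.8 and 243 CPM and Slc4a1 at 0 counts in the control, and Prdx2 lay the other way. Prdx4 of the endoplasmic reticulum had 1126 and 1666 counts, and its log2 ratio was 0.54 (0.43 to 0.66). Prdx6, which uses a single cysteine, had 3195 and 4574 counts, and its log2 ratio was 0.50 (0.43 to 0.56). Its paralogue Prdx6b had 104 and 2 counts, and its log2 ratio was -5.41 (-8.79 to -3.83). It shared 0.247% of its 50-base stretches with Prdx6. Of the family only Prdx1 and Prdx5 were called higher, under TMM and under all 3 other scalings, and Prdx2 and Prdx3 took 23.9% and 14.4% of peroxiredoxin FPKM in the control and 2.87% and 1.59% in the knockdown library.

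In the thioredoxin system the main cytosolic pair was higher and the mitochondrial pair was not called. Cytosolic Txn1, which passes electrons to peroxiredoxins, had 2903 and 11447 counts and was 3.89-fold higher (log2 1.96, 1.90 to 2.02), beside the 2.96-fold higher Txnrd1. Mitochondrial Txn2 had 1289 and 1871 counts, and its log2 ratio was 0.52 (0.41 to 0.62). Mitochondrial Txnrd2 had 540 and 338 counts, and its log2 ratio was -0.70 (-0.90 to -0.50). These lay on opposite sides of 0. Txnrd3, a thioredoxin and glutathione reductase known from the testis, had 632 and 124 counts and was 5.15-fold lower (log2 -2.37, -2.66 to -2.09). Of reductase FPKM, Txnrd1 held 46.9% in the control and 84.9% after knockdown, and Txnrd3 22.6% and 2.67%. Of the 9 spermatocyte and spermatid markers measured all were lower, with sums over 10 genes of 115 and 2.56 CPM and Acrv1 at 0 counts in the knockdown library, and their part in the lower Txnrd3 and Prdx6b counts was not tested.

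The 3 superoxide dismutases lay far apart. Sod2, the manganese enzyme of mitochondria and a known NF-kB target (ENSMUSG00000006818, chromosome 17, 13006846 to 13040063, protein-coding), had 2244 and 16180 counts and was 7.11-fold higher (log2 2.83, 2.77 to 2.89), and 21.0% of its 50-base stretches also stood in other annotated genes. Sod1, the copper and zinc enzyme of the cytosol, had 6206 and 3821 counts and a log2 ratio of -0.72 (-0.78 to -0.66), which was called lower with library totals at -1.16. Sod3, the secreted enzyme bound to matrix, had 2945 and 1220 counts and was 2.45-fold lower (log2 -1.29, -1.39 to -1.19). Sod1 stayed the most abundant per length, at 927 and 541 FPKM against 37.7 and 249 for Sod2. Summed FPKM of the family was 1.25-fold lower, although its summed counts were higher at 638 and 863 CPM, and FPKM weights each gene by length. Among the 4 enzymes found mainly in mitochondria, Sod2 was higher and Prdx3 lower, with Txn2 and Txnrd2 called neither. Prdx5 and Gstk1, which are found in mitochondria and elsewhere, are not among these 4. Cat, the peroxisomal catalase, had 2381 and 2105 counts, and its log2 ratio was -0.20 (-0.28 to -0.11).

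Since the series title names NF-kB, the same promoter windows were searched for the NF-kB motif on both strands. The letters were GGGRNNYYCC, where R is A or G, Y is C or T and N is any base. The motif stood in 6 of the 57 windows (10.5%), against 8.46% of all windows, in 3 of 11 higher, 1 of 14 lower and 2 of 16 genes called neither. Besides Sod2 these were Prdx1 and Gpx3 (higher), Gstt4 (lower), and Cat and Gpx1 (neither). Counted by gene, 9.55% of 27025 genes in all held the motif, and a match is again no bound site. The Sod2 match is shown because that gene is a known target of the factor, with the motif in capitals on the plus strand of chr17:13007730-13007791 (GRCm38.p6), beginning 83 bases before the RefSeq start of that window. It lies inside the gene's outer bounds given above, which come from GENCODE and reach farther upstream.
Sod2: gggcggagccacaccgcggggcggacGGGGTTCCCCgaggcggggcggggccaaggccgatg

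**Figure D4:**
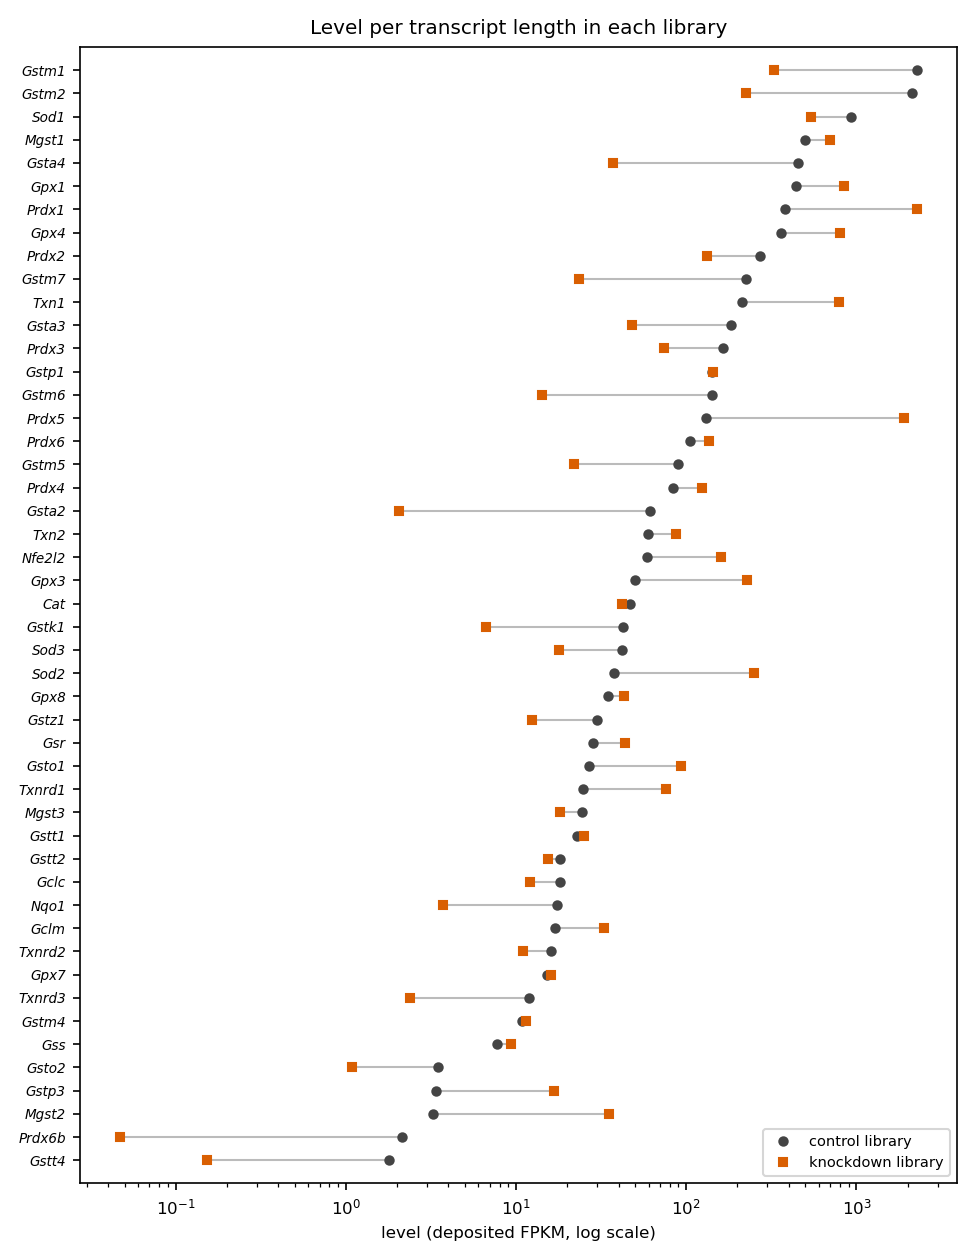
Deposited FPKM (x axis, log scale) in the control library (circles) and the knockdown library (squares) is plotted for each gene with at least 1 FPKM in 1 library, in the order of the control level. Gstm1 and Gstm2 head the control order, and Prdx1 and Prdx5 have the highest values in the knockdown library.

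The ratios of the 11 genes called higher went with those of immune and most fibroblast markers, and the part of these cells in them was not tested. All 8 neutrophil markers were higher, from 11.4 to 945 CPM in sum, with S100a8, Retnlg and Mmp8 at 0 counts in the control. All 6 T and NK cell markers were higher, from 67.5 to 429 CPM. Of 6 fibroblast markers 5 were higher, from 1324 to 8110 CPM in sum over all 6. The other fibroblast marker, Pdgfra, had a log2 ratio of -0.75. Of 6 endothelial markers 4 were higher, from 111 to 353 CPM in sum over all 6. Epididymis markers were scarce. Of 7 listed 2 were found, at 6.78 and 0.854 CPM in sum, and Adam7 had 0 counts in the knockdown library.

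The rest of the pathway was described from 6 lists of other genes. They held 121 distinct genes in the table, 115 of which passed the filter, with 33 higher (17.8% of all loci were), 16 lower (20.8%) and a median log2 ratio of 0.21. Scaled by library totals, 22 were higher, where 12.7% of all loci were, and 26 lower, where 27.8% were. Of 24 genes of the Keap1-Nrf2 pathway and its targets, 9 were higher and 4 lower, and the median was 0.69. The ferritin chain genes Fth1 and Ftl1, which store iron, had log2 ratios of 4.82 and 3.25. Ephx1, an epoxide hydrolase, and Me1, the cytosolic malic enzyme, had -5.03 and -4.53. Other called genes of this list, named after their values were seen, lay on both sides of 0. Srxn1, which repairs overoxidised peroxiredoxins, was at 2.89, the haem oxygenase gene Hmox1 at 2.65 and the cystine importer gene Slc7a11 at 2.47. The aldehyde oxidase gene Aox1 was at -3.37 and Osgin1 at -2.15.

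For the counts by list that follow, 17.8% of all loci were higher and 20.8% lower. Of 15 genes of NADPH supply, 2 were higher and 3 lower, and the median was -0.75. Me1, Aldh1l1 (10-formyltetrahydrofolate dehydrogenase) and Idh1 (cytosolic isocitrate dehydrogenase) were lower, the last 2 at -3.78 and -2.52. Taldo1, transaldolase of the pentose phosphate pathway, was higher at 1.14, with an interval of 1.08 to 1.21 close to the 2-fold line. Library totals lowered log2 ratios by 0.44, so this call did not hold with them. Of 21 genes of glutathione breakdown, salvage and use, 5 were higher and 4 lower, and the median was 0.19. The peptidase genes Anpep and Dpep2 were higher at 5.03 and 3.56. Both enzymes that turn homocysteine into cysteine, the limiting precursor of glutathione, were lower. Cth had 271 and 18 counts, and its log2 ratio was -3.90. Cbs had 140 and 0 counts, at least 47.3-fold lower against a floor of 3 counts in the knockdown library.

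Of 21 thioredoxin and glutaredoxin partners, 3 were higher and 4 lower, and the median was 0.14. These counts were near the shares of all loci, 17.8% higher and 20.8% lower. The methionine sulphoxide reductases split, with Msrb1 at 2.88, Msrb2 at -2.58 and Msrb3 at -1.63, while Msra at -0.15 was called neither. The stress gene Sesn2 was lower at -2.17. Of 22 genes for selenoprotein synthesis and other selenoproteins, 5 were higher and 0 lower by that rule, with a median of 0.20. The selenium recycling enzyme gene Scly was at 2.04, and the selenoprotein genes Selenow, Selenon and Selenom at 2.25, 1.58 and 1.36. Gpx1, Gpx3, Gpx4 and the 3 thioredoxin reductases are selenoproteins too, with 3 of these 6 higher and 1 lower. Of 13 measured genes that make superoxide, peroxide or nitric oxide, 9 were higher and 2 lower, and the median was 3.05. The phagocyte oxidase genes Cybb and Ncf4 were at 6.28 and 4.24 and the nitric oxide synthase gene Nos2 at 8.70. Duox2, named only for its 0 in the control, had 0 and 34 counts, and the median was the same with it at its lower bound.

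**Figure D5:**
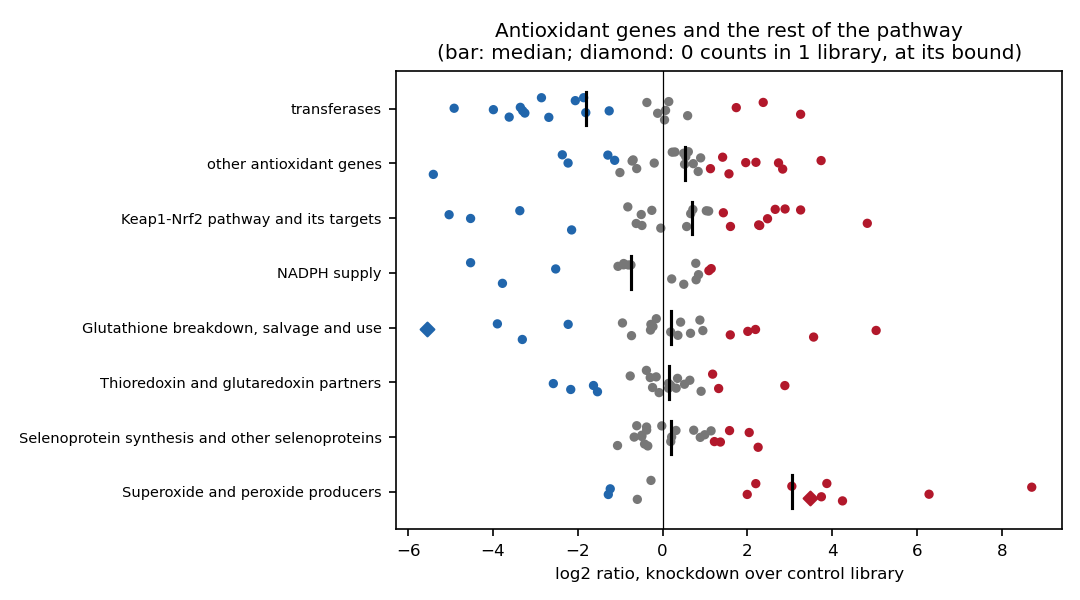
Each point is the log2 ratio (x axis) of 1 gene that passed the filter, for the transferases, the other antioxidant genes and 6 lists of pathway genes (y axis), coloured red where called higher, blue where called lower and grey otherwise, with a bar at the median and diamonds for genes at 0 counts in 1 library. Medians run from -1.81 for the transferases to 3.05 for the genes that make superoxide and peroxide.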

How the data were processed

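Read counts and FPKM per locus were used as the authors deposited them, per the file headers, for 1 control and 1 knockdown library of mouse testis. Tools listed in the submitters' processing notes, without role or order, are STAR 2.5.3a, Trimmomatic 0.36, Subread 1.5.1, featureCounts, DESeq and edgeR 3.12.1, and the build is mm10. The kit was stranded per the labels, and neither the annotation nor the strand setting of the counting is stated in the sources used here. Deposited FPKM values by the authors and raw counts gave knockdown over control ratios that differed by a median of 0.0058 (log2), where TMM scaling shifts raw count ratios by -0.0203, so the FPKM values already carried a scaling close to TMM.

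From the counts, TMM factors of 1.17 (control) and 0.858 (knockdown) were computed with edgeR 4.0.16 in R 4.3.3. Log2 ratios used a prior count of 0.5, and intervals are Clopper-Pearson at 95%. Positions, overlaps and 50-base stretches came from GENCODE M21 on GRCm38, the assembly mm10 names, which held all 51 identifiers. Promoter sequences are from RefSeq. Genes with at least 100 counts in 1 library were to be given in full, and in each pathway list up to 4 genes whose interval bound nearest 0 lay farthest from it, of which 1 is not reported here. The rule for the 51 genes used symbols only, but it and the lists were drawn up with earlier results of these data known. Other scalings, filters, prior counts and call rules were tried as alternatives. Calls were tested on simulated data, which cannot measure the variation between animals. Python 3.11.15 with scipy 1.17.1 was used.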

Additional observations from a re-analysis of the deposited data

How the results depend on the processing

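No paired analysis was possible because control and knockdown were 1 library each, and leaving 1 out would leave no comparison. Of the 48 genes, all kept the sign of their log2 ratio with FPKM, a prior count of 5 and the size factors of DESeq2 1.42.0, 46 did with upper quartiles and 43 with library totals, which lowered log2 ratios by 0.44. Of ratios whose interval excluded 0, Gpx8 alone changed sign, to -0.15 with library totals. Counts of called genes ranged from 9 to 16 higher and from 15 to 21 lower over the 8 alternatives. Pathway list genes called lower went from 16 to 26 with library totals and to 28 at 1.5-fold, while the share of all loci called lower went from 20.8% to 27.8% and 32.5%. The median log2 ratio of the 48 genes was -0.48 with library totals (all loci -0.46), -0.20 with no filter, and the mean was -0.42.

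Family sums depend on the unit. The log2 ratio of summed FPKM, then of summed CPM, then of FPKM rescaled by TMM factors (which scales these values again) was -3.01, -3.26 and -2.57 for GST alpha, -2.97, -3.42 and -2.53 for GST mu, 1.65, 1.13 and 2.09 for GST omega, 0.15, -0.28 and 0.59 for GST pi, -0.07, -0.49 and 0.38 for GST theta, 0.53, 0.14 and 0.97 for microsomal GST, 1.10, 0.75 and 1.55 for glutathione peroxidases, 0.46, -0.15 and 0.91 for glutathione synthesis and reduction, 2.03, 1.53 and 2.47 for peroxiredoxins, -0.32, 0.43 and 0.12 for superoxide dismutases, and 1.57, 0.95 and 2.02 for the thioredoxin system. CPM carries no TMM scaling and FPKM weights genes by length.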
